A study of Ovis aries with 26 samples.

Results

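The delta cells of the sheep pancreas were described from single-cell RNA-seq of WT and CFTR-/- fetuses and newborn lambs. A delta cell was a kept barcode (over 200 and under 6000 genes, under 25% mitochondrial UMIs) with at least 3 unique molecular identifiers (UMIs) of CHGA and at least 1 UMI of SCGN, INSM1 or ISL1, in which SST reached 10000 counts per-million (CPM, the UMIs of a gene scaled to the total UMIs of the cell) and was higher than GCG and PPY. By this rule 583 of 79510 kept cells were delta cells, which is 0.733% of the kept cells and 6.99% of the 8337 cells that passed the endocrine gate on CHGA and on SCGN, INSM1 or ISL1. The measured levels of these 7 genes therefore chose the cells, and inside the chosen cells they are described and not tested. Alpha cells (4450) and pancreatic polypeptide (PP) cells (568) were taken by the same rule with GCG or PPY as the highest hormone. The 2735 gate cells with SST, GCG and PPY all under 10000 CPM are called hormone-low cells. Insulin was not part of the rule, so any beta cells would fall among them.

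The study asked which pancreatic cells are altered before birth when CFTR, the chloride channel lost in cystic fibrosis, is absent. It holds 26 droplet libraries (10x Genomics, 3′ end) from 23 animals of the American Romney breed, and the animal was the replicate here. All delta cells of an animal were pooled, including those of the 3 CFTR-/- animals from which a pair of separate samples was taken. The WT group at 80 days of gestation had 4 naturally bred fetuses, 3 of them from 1 pregnancy, and 2 of the 4 were heterozygous (CFTR+/-, with an exon 11 allele) and were counted with WT as the study did. The CFTR-/- group at 80 days had 3 fetuses, from 2 recipient ewes, all clones made by nuclear transfer from a single male fibroblast line with exon 2 of CFTR targeted, so that genotype and cloning cannot be told apart at this age. At 120 days there were 3 WT fetuses and 6 CFTR-/- fetuses, of which 4 were clones of that line and 2 were naturally bred twins. At term there were 4 WT lambs and 3 CFTR-/- lambs, of which 1 was a clone and 2 were naturally bred. The breeding is taken from the study's sample list, which by its numbering also places 2 of the 3 WT fetuses and 2 of the 4 clones at 120 days in shared pregnancies.

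Delta cells are the somatostatin cells of the islet. Somatostatin acts over short distances through its receptors on neighbouring alpha and beta cells and holds back the release of glucagon and insulin. In other mammals delta cell identity depends on the transcription factor HHEX, and the cells answer to ghrelin through GHSR and to urocortin 3 through CRHR2.

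Total depth ran from 7841217 to 171256169 UMIs per library, and 24 of the 26 libraries held delta cells. The libraries without them were WT lamb 1 at term and CFTR-/- fetus 3 at 120 days, in which at most 1 cell passed the endocrine gate. In these, 0 of 1082 and 0 of 943 kept cells allow a share of up to 0.277% and 0.318% (3 counts of the total, counting error only). The median delta cell had 11649 UMIs and the median alpha cell 11735. No delta barcode was shared between libraries, and any pair of libraries shared at most 12 kept barcodes. A doublet caller scored each kept cell, and the number of cells expected to be doublets was marked from the top of the scores, among them 65 delta cells (11.1%) against 4.36% of all kept cells. The marked cells were kept. CFTR transcripts cannot check the genotype, since the 3′ end counted here lies outside the targeted exon. In delta cells CFTR was near background in both genotypes, at 0 to 9.31 CPM in WT and 0 to 16.9 in CFTR-/- animals.

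SST made up a large part of the messenger RNA of these cells. The median delta cell had an SST level of 96165 CPM, with quartiles of 52677 and 149200 and a highest value of 413994. Summed per animal with at least 10 delta cells, SST ranged from 35520 CPM in WT lamb 4 at term to 173900 in CFTR-/- lamb 3 at term. The 3 cells just inside the threshold had 10229, 10466 and 10491 CPM of SST and the 3 highest gate cells below it had 9972, 9552 and 9371. A further 40 gate cells passed the SST threshold but had more GCG or PPY, and 73 delta cells had exactly the 3 CHGA UMIs that the rule requires. A second hormone over 10000 CPM was found in 40 delta cells (6.86%), GCG in 34 and PPY in 10 of them. These 40 cells had a median of 17842 UMIs against 11197 in the other delta cells, and 4 of them were marked as doublets.

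Delta cells made up about 1% of the kept cells at 80 days and less at the later ages. In the WT fetuses at 80 days, 1.40, 1.43, 0.586 and 0.954% of the kept cells were delta cells (mean 1.09 ± 0.403%, SD, n = 4), and in the 3 CFTR-/- fetuses 0.496, 1.01 and 1.45% (0.985 ± 0.476%). At 120 days the shares were 0.382, 0.257 and 0.468% in WT (0.369 ± 0.106%, n = 3) and 0 to 1.09% in the 6 CFTR-/- fetuses (0.520 ± 0.440%). At term they were 0, 0.650, 0.708 and 0.897% in WT lambs (0.564 ± 0.390%, n = 4) and 1.07, 0.706 and 0.558% in CFTR-/- lambs (0.777 ± 0.262%, n = 3). The genotypes overlapped at each age. The log2 ratio of CFTR-/- to WT was -0.15 at 80 days (exact two-sided permutation test over animals, p = 0.8), 0.49 at 120 days (p = 0.595) and 0.46 at term (p = 0.514), each with an adjusted p of 0.8 over the 3 ages. Leaving out an animal gave -0.54 (without CFTR-/- fetus 3) to 0.17 (without CFTR-/- fetus 1) at 80 days, and the ratio at term was 0.05 without WT lamb 1, which had no delta cell, and 0.16 without CFTR-/- lamb 1. In WT the share was lower at 120 than at 80 days in every animal, with a log2 ratio of -1.57 (exact permutation p = 0.0571, the smallest that 3 animals against 4 can give, adjusted p = 0.114), so this design could not pass 0.05. Without the endocrine gate these groups overlapped, with WT fetus 3 at 120 days at 1.01% and WT fetus 3 at 80 days at 0.846% (log2 ratio -1.38, exact permutation p = 0.114). From 120 days to term the log2 ratio in WT was 0.61 (exact permutation p = 0.457). A lower share can reflect fewer delta cells or more of the other cells in the suspension, and these cannot be told apart.

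Among the cells high in SST, GCG or PPY, the delta share also overlapped between the genotypes at each age. Of all alpha, delta and PP cells, delta cells made up 11.8 ± 4.80% in WT and 11.6 ± 1.19% in CFTR-/- fetuses at 80 days, 5.99 ± 1.88% and 5.51 ± 2.83% at 120 days (n = 3 and 5), and 21.4 ± 14.2% and 15.4 ± 9.23% at term (n = 3 and 3). The log2 ratio at 80 days was -0.02 and turned to 5.94e-05 without marked doublets. The exact permutation p for genotype was 0.971, 0.929 and 0.6, and the smallest p that the animals allow was 0.0571, 0.0357 and 0.1. The spread at term was wide. WT lamb 4 had 37.0% delta cells among 73 hormone cells, while WT lambs 2 and 3 had 18 and 9.24%. CFTR-/- fetus 5 at 120 days had a single delta cell among 143 hormone cells (0.699%), far below the 5.36 to 7.77% of the other 4 CFTR-/- fetuses of that age with hormone cells. The gate passed 12.5% of the SST-high cells of this fetus. Without the gate it had 8 delta cells (2.81% of the hormone cells), against 8.18 to 9.68% in the other 4, and with cells thinned to 3000 UMIs it had 4 (2.68%).

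**Figure D1:**
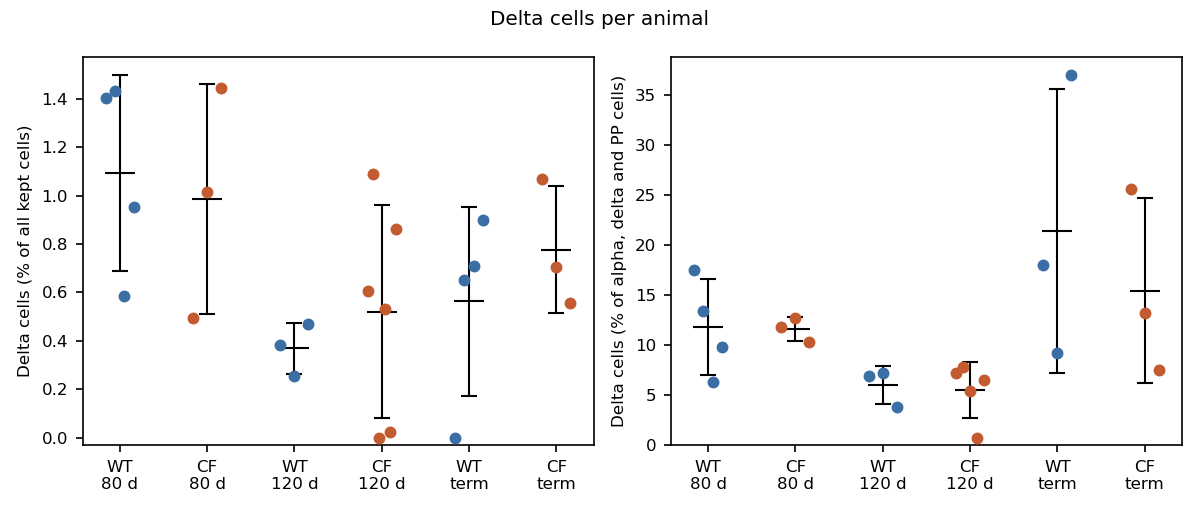
Delta cells per animal, as percent of all kept cells (left) and as percent of alpha, delta and PP cells (right), in WT (blue) and CFTR-/- (CF, orange) animals at 80 days, 120 days and term. Each point is an animal and the bars give the mean and SD. The genotypes overlap at each age, and WT at 120 days (0.257 to 0.468% of kept cells) lies below WT at 80 days (0.586 to 1.43%), a separation that was lost without the endocrine gate.

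The gate itself passed a different part of the SST-high cells at each age. When cells were chosen on the hormones alone, with no requirement on CHGA, SCGN, INSM1 or ISL1, 297 more cells were found, 123 of them without any CHGA UMI and 172 with 1 or 2. The gate had passed 57.9% of the SST-high cells in WT and 58.0% in CFTR-/- fetuses at 80 days, 50.7 and 52.3% at 120 days, and 81.2 and 95.5% at term. Without the gate the direction of the WT change from 120 days to term turned, to a log2 ratio of -0.10.

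In the cells chosen on SST alone CHGA was higher and ISL1 and INSM1 were lower at term than in the fetuses. These tests, and those on GCG below, were chosen after the data were seen. CHGA encodes chromogranin A, a protein of secretory granules, and ISL1 and INSM1 are transcription factors of endocrine cells. Over animals with at least 10 such cells, CHGA was 1100 to 3946 CPM at term and 412 to 1680 in the fetuses, a mean of 2526 ± 1176 (SD, n = 6) against 728 ± 374 (n = 13) and a ratio of 3.47 (permutation p = 0.000737, adjusted p = 0.000983 over 8 tests). Within the fetuses the mean CHGA level was lower at 120 than at 80 days, at 474 against 946.5 in WT (n = 2 and 4) and 569 against 817 in CFTR-/- fetuses (n = 4 and 3), a step that was not tested. ISL1 was 131 to 474 at term and 499 to 1047 in the fetuses, with no overlap and a ratio of 0.382 (exact permutation p = 7.37e-05, the smallest that 6 against 13 animals can give, adjusted p = 0.000197). INSM1 had a ratio of 0.424 (197 ± 72.0 against 465 ± 163, permutation p = 0.00059, adjusted p = 0.000983). Part of this difference lay within the fetuses. The mean INSM1 level of SST-high cells was 660 at 80 days, 344 at 120 days and 256 at term in WT, and 469, 325 and 138 in CFTR-/- animals. SCGN, which encodes the calcium-binding protein secretagogin, had a ratio of 1.23 that did not pass (permutation p = 0.0675, adjusted p = 0.0772).

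Cells chosen on GCG alone showed the same direction for CHGA and ISL1. CHGA was 5526 ± 2276 CPM at term (n = 6) and 1562 ± 442 in the fetuses (n = 15), a ratio of 3.54, and ISL1 was 110 ± 38.7 against 278 ± 94.6, a ratio of 0.396 (exact permutation p = 3.69e-05 for each, the smallest possible, adjusted p = 0.000147). SCGN had a ratio of 1.24 in these cells (permutation p = 0.000663, adjusted p = 0.000983). INSM1 had a ratio of 0.749 there (permutation p = 0.143). In WT its mean in GCG-high cells was 584 at 80 days, 285 at 120 days and 346 at term. At each age the mean ISL1 level of SST-high cells was above that of GCG-high cells and the mean CHGA level was below it, which is a description, since the difference between the cell types was not tested for these genes.

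**Figure D2:**
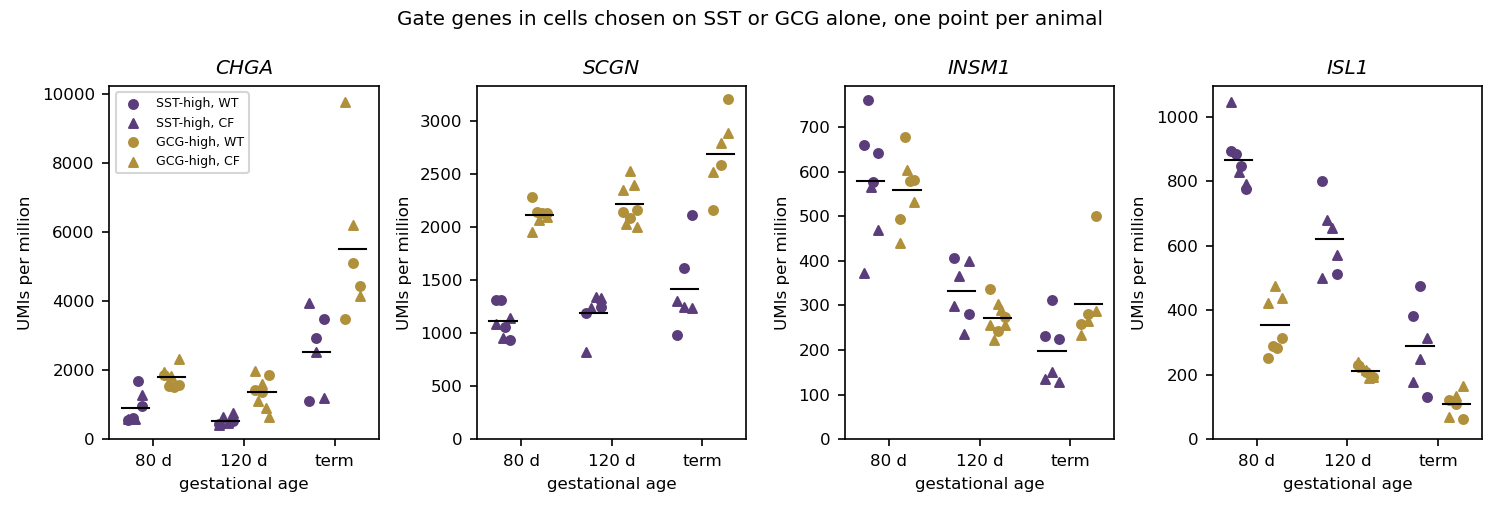
CPM of CHGA, SCGN, INSM1 and ISL1 in cells chosen on SST (purple) or GCG (yellow) alone, by gestational age, in WT (circles) and CFTR-/- (CF, triangles) animals with at least 10 such cells. Each point is an animal and the black lines are means over both genotypes. CHGA is higher at term (SST-high mean 2526) than in the fetuses (728), and ISL1 is lower (288 against 753).

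The question of what sets delta cells apart from the other hormone cells was tested within animals, on UMIs summed per animal and cell type. edgeR's quasi-likelihood test with the animal as a block was used, with the gate genes, the hormones and ribosomal protein genes left out, and adjusted p-values of at most 0.05 (Benjamini-Hochberg) were called. Levels are given as CPM per animal and cell type, after adding up the UMIs of its cells. Against alpha cells, over 18 animals with at least 10 cells of both types, 1580 of 10299 genes were higher in delta cells (15.3%) and 1750 lower (17%). Against PP cells, over 11 animals of 120 days and term, 397 of 6244 genes were higher (6.36%) and 399 lower (6.39%). Against hormone-low cells, over 18 animals, 905 of 9775 genes were higher (9.26%) and 1239 lower (12.7%). The 3 comparisons use the same delta sums and are not independent of each other. The median log2 fold change over all genes was close to 0 in each. Genes near 0 in alpha cells, such as CASR, GHSR and NEUROG3, passed the filter on low counts through their delta sums alone. Their direction was fixed by that.

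Genes that mark delta cells in other species were mostly higher in these cells. The rule did not use them, but the list was chosen with earlier results of these data known and is no independent check of the label. Of the 22 genes of the list, 18 were matched by symbol and 11 passed the filter on low counts against alpha cells. Of these 11 genes 10 were called higher and 1 lower, beside 15.3% and 17% over all genes. The median log2 fold change of the 11 was 3.79, against -0.003 over all genes. CASR and GHSR are among the 10. The filter fixed their direction, so their calls add nothing to the count and no fold is given for them. RBP4, which encodes the carrier of retinol in plasma, ranged from 2641 to 11566 (median 4466) CPM in delta cells and from 28.2 to 648 (median 83.5) in alpha cells (log2 fold change 5.62, SE 0.23, adjusted p = 3.69e-18). HHEX ranged from 117 to 798 (median 372) in delta and from 0.326 to 15.8 (median 6.21) in alpha cells (log2 fold change 6.05, SE 0.26, adjusted p = 1.04e-17). The lowest delta value of both genes lay above the highest alpha value. CASR, the calcium-sensing receptor, ranged from 31.8 to 107 (median 60.1) in delta and from 0 to 2.12 (median 0.459) in alpha cells. PCSK1, a protease that cuts prohormones, ranged from 164 to 1365 (median 506) and from 0.331 to 33.0 (median 10.4) (log2 fold change 5.66, SE 0.32, adjusted p = 7.37e-15). All 4 genes were higher in the delta cells of 18 of 18 animals.

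The remaining markers were weaker or absent. GHSR, the ghrelin receptor, was at 22.6 ± 13.9 CPM against 0.351 ± 0.495 in alpha cells (mean ± SD, n = 18). CRHR2 was at 23.7 ± 13.4 against 1.66 ± 1.39 (log2 3.79, adjusted p = 1.01e-12). FRZB, a secreted WNT antagonist, PDLIM4, NPTX2 and SEC11C were also called higher, with log2 fold changes of 3.46, 1.26, 0.65 and 0.66. BCHE, butyrylcholinesterase, was called lower (log2 fold change -0.59, SE 0.21, adjusted p = 0.0314), with 13.2 ± 8.19 against 16.8 ± 5.28 CPM. LEPR and PRG4, both markers of human delta cells, were at or near 0 in the delta sums (at most 2.32 and 0.782 CPM), so that no fold is given. Among these markers BCHE, LEPR and PRG4 went against the label of delta cells and the others went with it.

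Against PP cells 7 of 10 tested genes of the same list were higher and BCHE was lower, beside 6.36% and 6.39% over all genes. Against hormone-low cells 8 of 11 were higher while BCHE and SEC11C were lower, beside 9.26% and 12.7% over all genes. HHEX was higher than in PP cells (log2 5.13, adjusted p = 1.67e-11) and in hormone-low cells (log2 4.86, adjusted p = 2.04e-19) in each animal. PCSK1 separated delta from PP cells (log2 3.01, adjusted p = 8.38e-09) and did not pass against hormone-low cells, where it was 636 ± 343 in delta and 545 ± 325 in hormone-low cells (log2 0.31, adjusted p = 0.0993). RBP4 was 890.5 ± 497 CPM in hormone-low cells, below the 4899 ± 2268 of delta cells (log2 2.58, adjusted p = 6.53e-11).

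**Figure D3:**
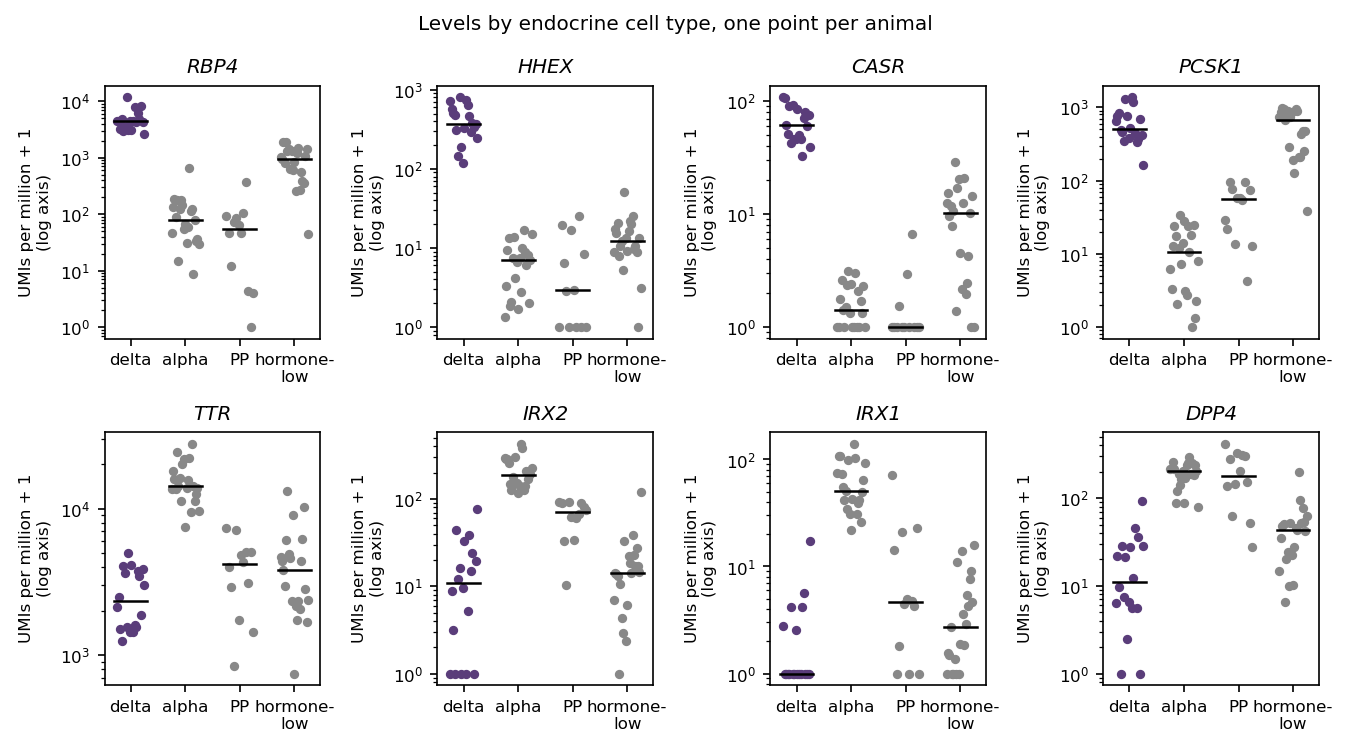
Levels of 4 genes higher in delta than in alpha cells (top) and 4 genes lower in delta than in alpha cells (bottom), as CPM + 1 (UMIs per-million) on a log axis, in delta, alpha, PP and hormone-low cells. Each point is an animal with at least 10 cells of the type and black lines are medians. RBP4, HHEX and CASR of delta cells (purple) lie above all alpha and PP points, whereas PCSK1 of hormone-low cells reaches the level of delta cells.

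Genes reported for alpha cells were more often lower than higher. Of 18 genes reported for alpha cells, 14 were tested, 8 were called lower and 2 higher (PCSK2 and KCTD12), with a median log2 fold change of -0.85. Over all genes 17% were lower and 15.3% higher. The transcription factor IRX1 ranged from 0 to 16.4 (median 0) CPM in delta and from 21.0 to 139 (median 52.2) in alpha cells (log2 fold change -5.42, SE 0.28, adjusted p = 8.14e-16). IRX2 ranged from 0 to 76.5 (median 9.90) and from 117 to 427 (median 182) (log2 fold change -4.10, SE 0.30, adjusted p = 2.75e-12). The ranges of neither gene overlapped between the cell types. TTR, transthyretin, was lower at 2654 ± 1203 against 15709 ± 5569.6 (log2 -2.67, adjusted p = 8.10e-14), as was the peptidase DPP4 at 19.1 ± 22.7 against 186 ± 59.1 (log2 -3.67, adjusted p = 9.38e-14).

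The genes with the largest changes beyond these lists included several receptors. SCTR, the secretin receptor, was 122 ± 42.1 CPM in delta and 3.32 ± 3.58 in alpha cells (log2 5.45, adjusted p = 3.14e-17), and it was also among the 8 highest against PP (log2 4.70, adjusted p = 5.68e-11) and hormone-low cells (log2 3.71, adjusted p = 2.84e-10). GPC3, a glypican of the cell surface, was 548 ± 174 against 16.6 ± 13.5 (log2 5.09, adjusted p = 6.22e-18). SULF2, a sulfatase of heparan sulfate, and DAPL1 were higher by log2 4.83 and 4.72. In the other direction, GPR119, a lipid receptor, was 53.2 ± 56.1 in delta and 733 ± 549 in alpha cells (log2 -4.02, adjusted p = 8.10e-15), and TAAR1, a trace amine receptor, 22.4 ± 23.2 against 298 ± 164 (log2 -3.86, adjusted p = 3.77e-14). The imprinted gene PEG10 was lower by log2 -2.74. Against PP cells the falls included PYY, which encodes peptide YY (24.1 ± 28.3 against 272 ± 228, log2 -4.10, adjusted p = 8.34e-07), TAAR1 (log2 -3.05), CPN1 (log2 -2.98) and SERPINA1 (log2 -2.76).

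Receptors for islet signals divided. Of 34 listed, 33 were matched and 17 tested against alpha cells. Of the tested genes 9 were higher and 5 lower, beside 15.3% and 17% over all genes, with a median log2 fold change of 0.72. GHSR is among the 9, and the filter on low counts fixed its direction. Besides GHSR and CRHR2, the higher ones included GLP1R, the receptor of GLP-1 (43.0 ± 23.5 against 6.22 ± 4.38, log2 2.77, adjusted p = 6.48e-10), the adrenergic receptor ADRA2A (log2 2.79, adjusted p = 1.40e-10) and the glucagon receptor GCGR (log2 2.27, adjusted p = 1.63e-08). Among somatostatin receptors SSTR3 was higher in delta cells, at 18.1 ± 6.62 against 4.29 ± 2.96 CPM (log2 2.00, adjusted p = 2.06e-08), and SSTR2 was lower, at 3.38 ± 3.38 against 26.7 ± 10.5 (log2 -2.92, adjusted p = 8.79e-11). The ranges of SSTR2 did not overlap, with delta cells at 0 to 10.2 and alpha cells at 14.7 to 49.3. GIPR was lower as well (log2 -0.99, adjusted p = 6.79e-04). GLP1R was higher than in PP cells (log2 3.41, adjusted p = 3.47e-08) and than in hormone-low cells (log2 1.34, adjusted p = 3.06e-07).

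Genes of electrical activity and glucose sensing were mostly higher. Of 27 listed, 22 were tested against alpha cells, 13 were higher and 1 (SCN3A) lower, beside 15.3% and 17% over all genes. The median log2 fold change was 0.60. CASR is among the 13, and the filter on low counts fixed its direction. RYR2, a calcium release channel, was 19.6 ± 17.2 CPM against 1.26 ± 0.808 (log2 3.67, adjusted p = 1.43e-11), and KCNK16, a potassium channel of islet cells, 673 ± 239 against 365 ± 137 (log2 0.84, adjusted p = 4.72e-10). ABCC8 and KCNJ11, the subunits of the ATP-sensitive potassium channel, were higher by log2 0.68 and 0.42. Genes reported for beta cells were also higher than in alpha cells in 7 of 9 tested (median 1.74), with SLC2A2, a glucose transporter, at 26.2 ± 24.0 against 3.57 ± 7.03 (log2 3.42, adjusted p = 1.94e-06) and G6PC2 at 10.2 ± 9.26 against 1.76 ± 1.99 (log2 3.1, adjusted p = 1.30e-06). Against hormone-low cells the beta list went the other way, with 7 of 10 lower, 1 higher (SYT13), beside 12.7% and 9.26% over all genes, and a median of -1.22. There SLC2A2 was 107 ± 88.6 (log2 -1.96, adjusted p = 1.92e-08) and G6PC2 41.2 ± 20.4 CPM (log2 -1.92, adjusted p = 1.41e-08). IAPP was at 0 in all delta sums.

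Secretory granule genes changed in both directions against alpha cells. Of 27 tested 10 were higher and 6 lower, beside 15.3% and 17% over all genes. CHGB, chromogranin B, was 373 ± 209 CPM in delta and 24.4 ± 11.6 in alpha cells (log2 fold change 3.81, SE 0.16, adjusted p = 7.49e-18), and SYT13, a synaptotagmin, 394 ± 92.3 against 63.6 ± 22.4 (log2 2.63, adjusted p = 3.78e-19), both without overlap. PCSK2 was higher than in all 3 other types (log2 0.62, 1.04 and 1.41). GNAS, which encodes the stimulatory G protein subunit, was lower at 5042 ± 1355 against 22493 ± 10049 (log2 -2.14, adjusted p = 2.93e-16). VGF was lower too (log2 -1.39, adjusted p = 3.55e-06). SCG2 was called lower (log2 -0.47, adjusted p = 0.011), and in the 80-day animals alone its log2 fold change was 0.06.

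Transcription factors of the islet and of endocrine progenitors were higher in delta than in alpha cells more often than lower. Of 27 tested islet factors 13 were higher and 9 lower, beside 15.3% and 17% over all genes. Of 12 tested progenitor genes 10 were higher and 1 (FEV) lower, with a median of 1.43. The lists share NEUROG3, PAX4, SOX4 and SOX11 among the higher genes and FEV among the lower, so these counts are not independent. PAX4 was 31.2 ± 30.1 CPM against 1.42 ± 1.84 (log2 4.39, adjusted p = 6.92e-14) and MEIS2 276 ± 163 against 26.8 ± 11.7 (log2 3.34, adjusted p = 1.87e-15). NEUROG3, the factor that starts endocrine differentiation, was low in delta cells at 4.93 ± 4.75 and near 0 in alpha cells at 0.105 ± 0.182. It passed the filter on low counts through its delta sums alone, so its call as higher adds nothing to either count and no fold is given. SOX11 and HES6 were higher by log2 2.97 and 1.05. Against hormone-low cells only 2 of 11 progenitor genes were called higher (PAX4 and CBFA2T3) and 1 lower (GADD45A, at log2 0.083 in the 80-day animals alone), and the median log2 fold change was 0, beside 9.26% higher and 12.7% lower over all genes. Against PP cells 1 of 6 was higher (RGS16) and 1 lower (GADD45A), beside 6.36% and 6.39% over all genes.

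Further lists were mixed. None of 18 tested cell division genes was called against alpha cells, none of 4 against PP cells and none of 16 against hormone-low cells. Of 17 genes of protein folding in the endoplasmic reticulum, 14 were lower and none higher than in hormone-low cells (median -0.36). Against PP cells 8 were lower, and against alpha cells 6 were higher and 1 lower. Over all genes 12.7% were lower than in hormone-low cells and 6.39% lower than in PP cells. HSPA5, the main chaperone of that compartment, was 1612 ± 623 in delta against 2259.9 ± 934 in hormone-low cells (log2 -0.53, adjusted p = 0.002). Immediate early and heat genes were lower than in alpha cells in 7 of 19 and higher in 1 (HSPB1). FOS was 1147 ± 664 against 1889 ± 1033 (log2 -0.79, adjusted p = 1.08e-06). Of 15 tested genes of neuronal adhesion 6 were higher than in alpha cells, CADM1 among them (log2 1.70, adjusted p = 1.43e-14), and 5 lower. Over all genes 15.3% were higher and 17% lower. Of the PP and epsilon list 1 of 6 was higher (MEIS2) and 2 lower (ETV1 and CARTPT) against PP cells. Hypoxia and glycolysis genes gave 3 higher and 5 lower of 13 against alpha cells, and interferon and inflammation genes 1 higher (CXCL8) and 3 lower of 9, beside 15.3% higher and 17% lower over all genes.

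Against hormone-low cells the rises included BCAS1 (log2 4.04, adjusted p = 7.13e-12), the neurofilament gene INA (log2 3.99, adjusted p = 7.55e-11), the angiotensin receptor AGTR1 (log2 3.75, adjusted p = 2.60e-14) and SLC7A14 (log2 3.3, adjusted p = 7.93e-18). The largest falls were in DLK1, an imprinted gene of the Notch ligand family (log2 -4.40, adjusted p = 7.74e-09), SMIM24, ACVR1C, AMY2B, CTRC, GTL2, CPA1 and NELL2. AMY2B, CTRC and CPA1 encode digestive enzymes. In delta cells 9 of 10 tested acinar markers and 7 of 9 stromal markers were lower than in hormone-low cells, beside 12.7% over all genes. Their part in this comparison was not tested.

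Transcripts of acinar and duct markers were found in delta cells. The 11 matched acinar markers, summed per animal, had a median of 2423 CPM in delta cells, over a range of 50.8 to 27510. In the cells outside the gate the medians ran from 11640 to 78270. The 12 duct markers had a median sum of 772 CPM in delta cells (443 to 1878) and of 1352 outside the gate (489 to 4297), and in WT lambs the medians were 777 and 741. Against alpha cells 4 of 10 acinar markers were called higher (CELA1, CPB1, DNASE1 and PNLIPRP2) and none lower. Of 11 tested duct markers EHF, SPP1, SLC4A4 and KRT7 were called higher and ANXA4, ELF3 and KRT8 lower. Over all genes 15.3% were higher and 17% lower than in alpha cells. With SST at 50000 CPM or more DNASE1 (log2 -0.70) and PNLIPRP2 (log2 -0.74) turned direction. CELA1 was 492 ± 327 in delta and 152 ± 181 in alpha cells (log2 2.02, adjusted p = 5.49e-08), and EHF, a transcription factor of epithelia, 74.7 ± 28.4 against 12.4 ± 14 (log2 2.87, adjusted p = 2.11e-14). Stromal markers summed to at most 705 and endothelial markers to at most 52.8 CPM. SOX10, CLDN5, ALAS2, SLC4A1 and KLF1 were at 0 in all delta sums.

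The ages were compared on the delta sums of the animals. In WT alone no gene passed between 80 and 120 days (0 of 6201 genes, 0%) or between 120 days and term (0%) with edgeR, in a joint fit of 18 animals with at least 10 delta cells. At an unadjusted p under 0.05 there were 458 and 506 of the 6201 genes, where chance alone gives a share of about 0.05. DESeq2 called 9 and 2. When both genotypes were pooled, a comparison chosen after the data were seen, the 6 animals at term differed from the 12 fetuses of 80 and 120 days in 312 genes that were higher (5.03%) and 178 that were lower (2.87%), with a median log2 fold change over all genes of 0.02. The median delta cell of an animal had 4440 to 10043 UMIs at term and 10094 to 19602 in these fetuses. The part of depth in these calls was not tested. The gate also passed a smaller part of the SST-high cells in the fetal groups (50.7 to 58.0%) than at term (81.2 to 95.5%). With animals of at least 20 delta cells 303 genes passed, with SST at 50000 CPM or more 266, and without CFTR-/- lamb 1 at term 294.

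Ceruloplasmin transcripts were found in delta cells of all 6 term lambs and in few of the fetuses. CP, which encodes this copper-carrying ferroxidase of plasma, was at 182, 9.31 and 525 CPM in WT lambs and at 340.2, 536 and 268 in CFTR-/- lambs, while 10 of the 12 fetuses were at 0 and the highest fetus at 3.09. CP passed the filter on low counts through its term sums alone, so its direction was fixed and no fold is given. The groups did not overlap, which was a condition of the rule that named CP. At the closest points the gap rests on very few UMIs. The 9.31 CPM of WT lamb 3 came from a sum of 214862 UMIs. The 3.09 CPM of WT fetus 3 at 120 days came from 323254 UMIs. In alpha cells CP was 53.2, 0.433 and 155 in WT and 268, 332 and 64.9 in CFTR-/- lambs and at most 2.14 in the fetuses.

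DAPL1 rose in delta cells and in alpha cells. It was 296, 223 and 377 CPM in WT and 812, 382 and 844 in CFTR-/- lambs and ranged from 12.7 to 86.6 (median 35.2) in the fetuses (log2 fold change 3.68, SE 0.25, adjusted p = 3.47e-09). In alpha cells DAPL1 was 14.2, 28.2 and 21.1 in WT and 91.6, 25.6 and 13.9 in CFTR-/- lambs and at most 1.54 in the fetuses, and its delta to alpha ratio fell by 3.04 on the log2 scale (edgeR adjusted p = 0.00508). SERPINA1, which encodes alpha-1-antitrypsin, was 163, 130.3 and 191 in WT and 71.2, 79.7 and 85.5 in CFTR-/- lambs, against 0 to 46.4 (median 13.5) in the fetuses (log2 fold change 3.08, SE 0.26, adjusted p = 1.20e-07). Each term lamb lay above each fetus for both genes, which was a condition of the rule that named them. SERPINA1 was higher in alpha than in delta cells at each age, at 487, 891 and 444 in WT lambs.

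Further rises named by the same rule were in the class I histocompatibility gene OLA-I (73.5 ± 65.8 against 5.30 ± 3.93, log2 3.80, adjusted p = 7.21e-06), FAM174B (log2 2.03), the amino acid transporter SLC38A4 (log2 1.95), the pentraxin NPTX2 (log2 1.54) and UGP2, an enzyme of glycogen synthesis (log2 1.48). B2M, the light chain of class I molecules, was 969 ± 459.7 at term and 314 ± 80.6 in the fetuses (log2 1.73, adjusted p = 4.88e-05). B2M, NFKBIA and SOD2 were the 3 genes called higher of 6 tested in the interferon and inflammation list, and none was lower, beside 5.03% higher and 2.87% lower over all genes. Of 17 protein folding genes, XBP1 (log2 0.75, adjusted p = 0.0112) and SDF2L1 (log2 1.18, adjusted p = 0.0113) were higher, and of 17 immediate early and heat genes DNAJA1, HSPA8 and DNAJB1 were lower.

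Of 9 tested genes of endocrine progenitors 3 were lower at term (HES6, SOX4 and PAX4) and none was higher, beside 2.87% lower and 5.03% higher over all genes. HES6, a Hairy and Enhancer of split factor of neural and endocrine progenitors, was 16.0, 27.9 and 21.9 CPM in WT and 19.6, 21.2 and 18.6 in CFTR-/- lambs and ranged from 44.9 to 226 (median 124) in the fetuses (log2 fold change -2.36, SE 0.34, adjusted p = 1.27e-04). CDKN1C, an imprinted inhibitor of the cell cycle, was 36.8, 27.9 and 65.6 in WT and 31.3, 53.1 and 33.5 in CFTR-/- lambs, against 83.5 to 291 (median 152) (log2 fold change -1.83, SE 0.21, adjusted p = 1.17e-05). Neither gene overlapped between term and fetus, which was a condition of the rule that named them. PCBP4, PDK3, NREP, CD24 and MARCKSL1 were the other genes named as lower, with log2 fold changes from -1.51 (PCBP4) to -1.02 (MARCKSL1). The progenitor list had a median log2 fold change of -0.98, and its other members called were SOX4 (log2 -0.98, adjusted p = 7.23e-04) and PAX4 (log2 -1.80, adjusted p = 0.0435).

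Of the 10 tested genes reported for delta cells in other species, NPTX2 and SEC11C were higher at term and HHEX and PDLIM4 lower. HHEX was 144, 363 and 246 CPM in WT and 117, 324 and 335 in CFTR-/- lambs and ranged from 189.9 to 798 (median 495) in the fetuses, so that the groups overlapped (log2 -0.88, adjusted p = 0.0177). RBP4 was 4309 ± 1966 at term and 5194 ± 2430 in the fetuses (log2 -0.12, adjusted p = 0.843), and CASR 57.4 ± 19.1 and 68.5 ± 25.5 (log2 -0.20, adjusted p = 0.718). Of 14 tested genes of excitability and glucose sensing SCN9A (log2 -1.37, adjusted p = 0.00363), KCNK16 (log2 -0.87, adjusted p = 0.00909) and ABCC8 (log2 -0.79, adjusted p = 0.0205) were lower and none was higher. GLP1R was the only one of 11 receptors called, and was higher (log2 0.97, adjusted p = 0.0328). Among 25 granule genes SEC11C and PAM were higher and RAB3B, UCHL1 and CHGB lower, beside 5.03% higher and 2.87% lower over all genes. Of 20 islet transcription factors, NR3C1, the glucocorticoid receptor, was higher (log2 0.89, adjusted p = 0.00449), and SOX4, HHEX, PAX6 and PAX4 were lower.

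In the same cells, of 10 tested acinar markers 5 were higher at term (CPB1, SYCN, CTRC, CLPS and AMY2B), with a median log2 fold change of 2.40, and none was lower. Of 10 tested duct markers 3 were higher (EHF, ANXA4 and ELF3) and none lower, with a median of 0.20. Over all genes 5.03% were higher and 2.87% lower at term. SYCN was 972 ± 919 CPM at term and 55.7 ± 63.6 in the fetuses (log2 4.90, adjusted p = 4.60e-05). The summed acinar markers of delta cells had medians of 806, 2256 and 14700 CPM in WT and 1548, 7039 and 1652 in CFTR-/- animals at 80 days, 120 days and term. In cells outside the gate the medians were 14630 and 11640 in WT and CFTR-/- fetuses at 80 days and 78270 and 60710 at term. The part of acinar RNA in the term calls was not tested.

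**Figure D4:**
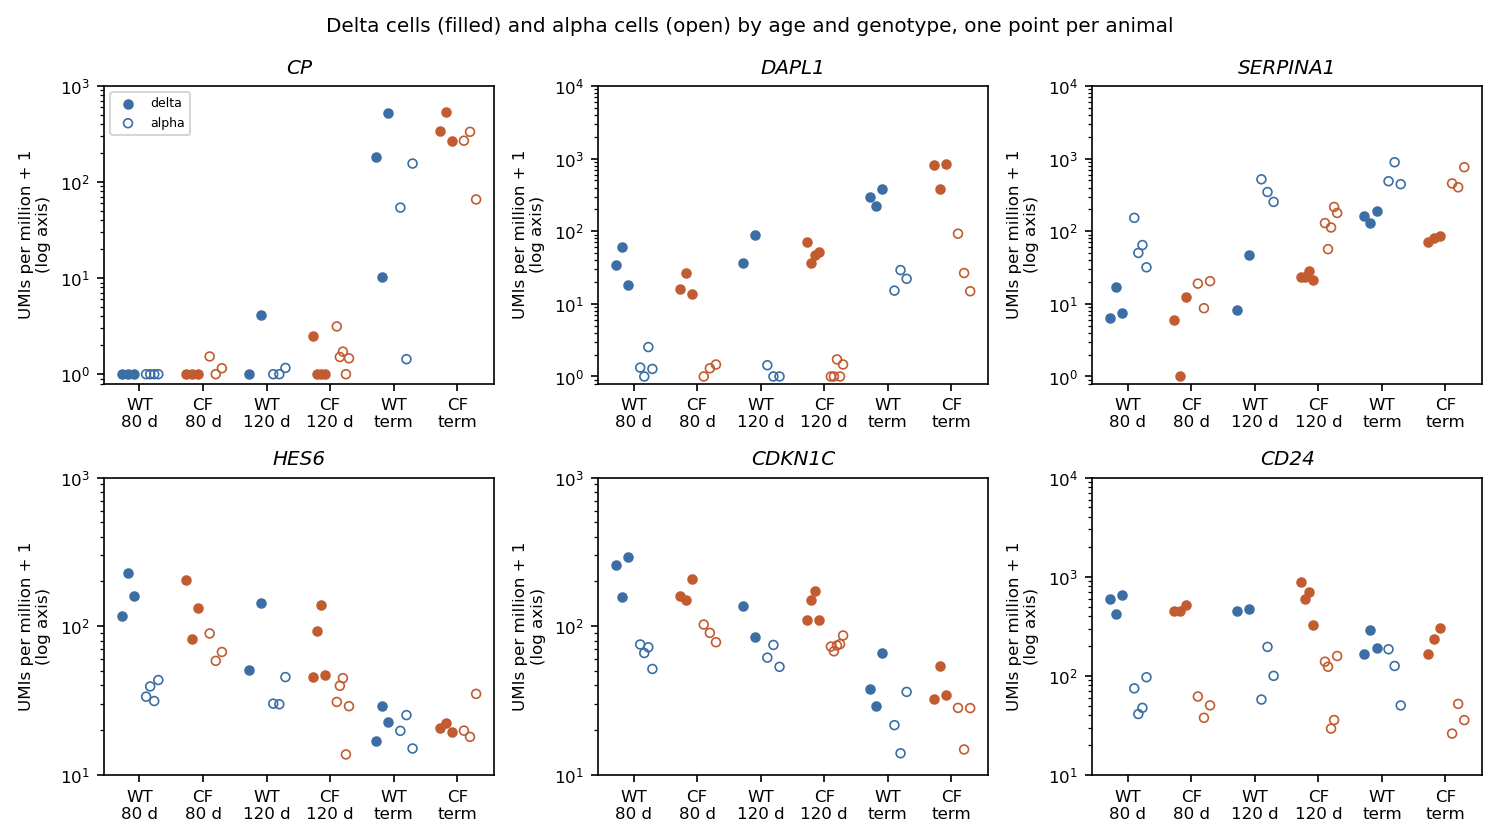
CPM + 1 on a log axis for 3 genes higher and 3 genes lower at term, in delta cells (filled) and alpha cells (open) of WT (blue) and CFTR-/- (CF, orange) animals. Each point is an animal with at least 10 cells of the type. In delta cells the 6 term animals lie apart from the 12 fetuses for each of the 6 genes, for CP by very few UMIs. The genes were taken from the 18 higher and 7 lower called genes that met the naming rule. That rule required such a gap, so the gap is no further result.

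Whether the delta to alpha ratio differed with age was tested as an interaction of cell type and age, in the animals with at least 10 cells of both types. Of 10299 genes, 73 had a delta to alpha ratio that differed between term and the fetuses (0.709%), a test also added after the data were seen. Of these 73 genes 25 were called in delta cells. In alpha cells alone 1155 of 11260 genes were higher at term (10.3%) and 1075 lower (9.55%). Of the 312 genes higher at term in delta cells 305 were tested in alpha cells, and 214 of them were called higher there and 3 lower. Of the 178 lower genes 172 were tested, and 115 were called lower and 1 higher. HES6 was among the 73 genes, with a ratio that fell by 1.41 on the log2 scale. TXNDC17, a thioredoxin-like protein, rose in delta cells from 190.2 ± 47.0 in the fetuses to 359.6 ± 89.8 at term (log2 1.01, adjusted p = 5.70e-04), and its ratio rose by 1.32 (edgeR adjusted p = 4.42e-06). In alpha cells TXNDC17 was 1156, 878 and 806 in WT fetuses at 120 days and 639.9, 558 and 761 in WT lambs. Within WT the ratio differed in 0 genes between 80 and 120 days (0%) and in 1 gene, TXNDC17, between 120 days and term (0.00971%). At an unadjusted p under 0.05 these 2 tests had 617 and 546 of the 10299 genes, where chance alone gives a share of about 0.05. DESeq2 called 0 and 1. Without marked doublets 1 and 2 genes were called.

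Between 80 and 120 days, with both genotypes together and again chosen after the data were seen, 19 genes were higher (0.306%) and 17 lower (0.274%). The named rises were all mitochondrial, MT-ATP8 (log2 2.35, adjusted p = 0.00111), MT-ND3 (log2 1.36, adjusted p = 0.00966), MT-ND1 and MT-CYTB. The median mitochondrial share of delta cells was 4.20 to 6.08% in the 6 fetuses at 80 days and 6.01 to 9.61% in the 6 at 120 days. The named falls were in DLK1 (log2 -5.75, adjusted p = 0.0277), SEPT3, VIM, BASP1, GSTP1 and MAP1B. Of 6 tested stromal markers DCN and COL1A2 were called lower in the same sums, with none higher and a list median of -4.53 on the log2 scale. DCN, which encodes decorin, was 30.2, 10.5 and 65.1 CPM in WT and 30.5, 4.64 and 12.7 in CFTR-/- fetuses at 80 days and 0 in all 6 fetuses at 120 days. Their part in the falls was not tested. VIM, the intermediate filament vimentin, ranged from 83.1 to 448 (median 193) at 120 days and from 737 to 981 (median 854) at 80 days (log2 fold change -1.63, SE 0.28, adjusted p = 0.0092), and SOX11 fell from 40.0 ± 19.7 to 6.19 ± 6.17 (log2 -4.28, adjusted p = 0.0146). Of 9 tested cell division genes CENPF and UBE2C were lower, with CENPF at 102 ± 66.5 at 80 days and 3.15 ± 6.36 at 120 days (log2 -6.25, adjusted p = 0.00788). Without WT fetus 3 at 120 days no gene passed, and without the 2 heterozygous fetuses 6 did.

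Few genes differed by genotype. In CFTR-/- against WT delta cells 2 of 6201 genes passed at 80 days (0.0323%), 0 at 120 days (0%) and 0 at term (0%). At an unadjusted p under 0.05 there were 366, 264 and 295 of the 6201 genes, where chance alone gives a share of about 0.05. DESeq2 called 3, 0 and 2. Leaving out an animal gave 0 to 3 genes at 80 days (0 without CFTR-/- fetus 3) and 0 to 7 at term (7 without CFTR-/- lamb 2). At 80 days 12 genes passed in a fit of these groups alone and 4 without marked doublets. Delta identity genes overlapped between genotypes or failed the test. RBP4 at 80 days was 4474, 4481 and 3201 CPM in WT and 11570, 4474 and 7881 in CFTR-/- fetuses (log2 0.94, adjusted p = 0.787), and HHEX 722, 563 and 514 and 798, 752 and 634 (log2 0.22, adjusted p = 0.986). PCSK1 at 80 days did not overlap, at 645, 766 and 846 in WT and 1281, 1365 and 1166 in CFTR-/- fetuses, and did not pass (log2 0.69, adjusted p = 0.805). At term RBP4 had a log2 fold change of 0.61, HHEX of 0.02 and GHSR of -0.95, with adjusted p-values of 1.

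The genes called at 80 days were PLAGL1 and LOC105607196, a protein-coding gene known only by this number. LOC105607196 was 10.7, 0 and 2.17 CPM in WT and 40.7, 97.5 and 165 in CFTR-/- delta cells (log2 fold change 4.29, SE 0.59, adjusted p = 0.00205). In alpha cells it was 0, 0, 0.77 and 1.08 in WT and 0, 3.26 and 0.615 in CFTR-/- fetuses. This call was lost without CFTR-/- fetus 3 (log2 3.76, adjusted p = 0.3) and without both heterozygous fetuses (log2 3.26, adjusted p = 0.224), which left 1 WT fetus in that group, assumed to vary like the other groups. PLAGL1 encodes an imprinted zinc finger factor. It was 17.8, 2.63 and 13.0 CPM in the WT fetuses and 168, 65.0 and 112 in the CFTR-/- fetuses, with no overlap (log2 fold change 3.13, SE 0.55, adjusted p = 0.0274). In alpha cells of these ages it was 5.22, 4.07, 4.62 and 9.47 in WT and 2.65, 6.53 and 4.00 in CFTR-/- fetuses, and the delta to alpha ratio differed by 3.79 on the log2 scale (edgeR adjusted p = 0.0306). Outside the gate PLAGL1 was 45.2, 67.8, 62.8 and 50.7 in WT and 160.1, 91.4 and 99.5 in CFTR-/- fetuses. The call at 80 days was lost without WT fetus 1, either heterozygous fetus, or CFTR-/- fetus 1 or 3, with log2 fold changes of 2.77 to 3.61, and without both heterozygous fetuses (2.60, adjusted p = 0.84), again with 1 WT fetus assumed to vary like the other groups. At 120 days and term PLAGL1 was at most 42.5 CPM in all delta sums.

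DLK1 and APOA1 are given beside them. DLK1 at 80 days was 5.33, 18.4 and 80.3 CPM in WT and 305, 488 and 1185 in CFTR-/- fetuses, without overlap, and failed the adjusted test (log2 fold change 4.19, SE 0.88, adjusted p = 0.108). APOA1, which encodes apolipoprotein A-I, was the only gene of 6201 called in all 3 ages pooled (0.0161%, a comparison added after the data were seen), with a log2 fold change of 4.07 (SE 0.67, edgeR adjusted p = 0.0248). It was 14.2, 10.5 and 45.6 in WT and 107, 801 and 719.6 in CFTR-/- delta cells at 80 days, and 6.40, 88.4 and 0 and 304, 398 and 974 at term. The genotypes overlapped at 120 days, where WT had 21.3 and 6.19 and CFTR-/- 356, 44.5, 4.62 and 30.5. In cells outside the gate APOA1 at 80 days was 785, 682, 549.6 and 1008 in WT and 4277, 5000 and 8043 in CFTR-/- fetuses. The part of RNA from those cells was not tested, and the call was lost without marked doublets, without the heterozygous fetuses or without any of WT fetuses 1 and 2 at 80 days, 1 and 3 at 120 days and WT lambs 2 and 4.

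The test of whether the delta to alpha ratio differed between the genotypes gave 4 of 10299 genes at 80 days (0.0388%), namely PLAGL1, DLK1, AMY2B and AGTR1, 0 at 120 days (0%) and 1 at term (0.00971%), namely MMP7. At 120 days 498 of the 10299 genes had an unadjusted p under 0.05, where chance alone gives a share of about 0.05. DESeq2 called 0 genes at each of the 3 ages, and without the 2 heterozygous fetuses, which left 1 WT fetus assumed to vary like the other groups, edgeR called 0 at 80 days. These genes are described further among the results for a closer look.

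**Figure D5:**
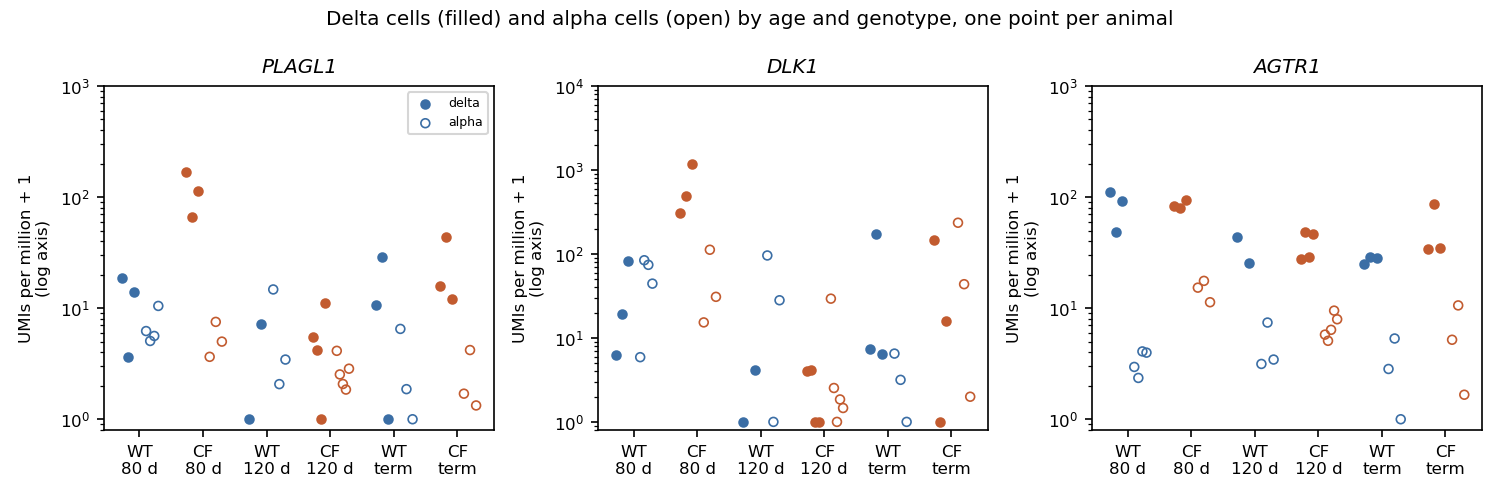
CPM + 1 on a log axis for PLAGL1, DLK1 and AGTR1 in delta cells (filled) and alpha cells (open) of WT (blue) and CFTR-/- (CF, orange) animals. Each point is an animal with at least 10 cells of the type. PLAGL1 and DLK1 of delta cells are higher in the 3 CFTR-/- fetuses at 80 days than in the 3 WT fetuses, and AGTR1 of alpha cells is higher in the CFTR-/- fetuses.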

How the data were processed

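Pancreas was dissociated and cells were run on the 10x Genomics Chromium platform (3′ kits v3 and v3.1). The authors aligned the reads with Cell Ranger 3.1.0 to the sheep genome Oar_v4.0 and deposited filtered matrices of raw UMI counts per gene and cell, with 109501 barcodes and 24478 features. The remaining steps start from these deposited counts. Of 8432 features named by a locus number, 501 took a symbol from the RefSeq table, and 92 ribosomal protein genes were left out of the tests. Barcodes with over 200 and under 6000 genes and under 25% mitochondrial UMIs were kept (79510). Scrublet (scanpy 1.11.5) scored doublets. Its own threshold marked too few barcodes to be used, so the highest scores of each library were marked until the rate expected for its number of barcodes was reached. Marked cells stayed in.

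Counts were summed per animal and cell type where at least 10 cells were present. edgeR 4.0.16 (R 4.3.3; TMM, filterByExpr, quasi-likelihood test) gave the tests across genes, with the animal as a block between cell types and a joint fit of 6 groups for genotype and age. Adjusted p-values are Benjamini-Hochberg over all genes tested, and at most 0.05 was called. Every adjusted p of a single gene in the text is edgeR's, except those of the gate genes CHGA, SCGN, INSM1 and ISL1. The p-values of the gate genes come from permutation over animals, in cells chosen on SST or GCG alone. They were adjusted over those permutation tests only. Shares of cells were compared by exact two-sided permutation over animals (scipy 1.17.1). DESeq2 1.42.0 was an alternative. The fits were also run on simulated counts with known changes, and no result here draws on them. Depth ran from 7841217 to 171256169 UMIs a library, and intervals and limits cover counting error only.

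Genes were named in each comparison as the 8 largest changes in each direction among the called genes with a symbol and at least 50 CPM (counts per-million) in the higher group that moved alike in every animal (cell types) or did not overlap (genotype and age), together with members of the gene lists. LOC105607196, APOA1, TXNDC17 and GIP fell outside this and were named after their values were seen. Members and lists were chosen with earlier results of these data known. Some animals of a group shared a pregnancy, and the p-values measure the spread between these animals. No genome sequence was used. Some genes are not reported here.

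Replicate numbers were not used as pairs. Deviations of same-numbered WT and CFTR-/- delta sums had correlations of -0.02 and -0.143 at 80 days, -0.113 at 120 days, and 0.009 and 0.272 at term.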

Additional observations from a re-analysis of the deposited data

Results flagged for a closer look

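At 80 days the delta to alpha ratio of 4 genes differed between CFTR-/- and WT fetuses (edgeR interaction test), namely PLAGL1 by 3.79 on the log2 scale (adjusted p = 0.0306), DLK1 by 4.20 (adjusted p = 0.0306), AMY2B by 5.73 (adjusted p = 0.0286) and AGTR1 by -2.40 (adjusted p = 0.0306). Leaving out 1 fetus gave 0 to 3 genes, with 0 without WT fetus 1, heterozygous fetus 4 or CFTR-/- fetus 3. Without both heterozygous fetuses, which left 1 WT fetus assumed to vary like the other groups, and with DESeq2 there were 0. Without marked doublets there was 1.

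For PLAGL1 and DLK1 the delta sums changed more than the alpha sums. DLK1 was 5.33, 18.4 and 80.3 CPM in WT and 305, 488 and 1185 in CFTR-/- delta cells, and 4.90, 83.1, 73.2 and 43.3 in WT and 14.3, 111 and 29.9 in CFTR-/- alpha cells. For AGTR1, the angiotensin receptor, the alpha sums changed. It was 1.96, 1.35, 3.08 and 2.98 in WT and 14.3, 16.6 and 10.3 in CFTR-/- alpha cells, and 110.2, 47.4 and 91.1 in WT and 81.3, 78.9 and 93.1 in CFTR-/- delta cells. All CFTR-/- fetuses of this age were clones, so genotype and cloning cannot be told apart.

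AMY2B encodes a digestive amylase of acinar cells. It was 7.11, 5.27 and 8.68 in WT and 0, 2.32 and 110.1 in CFTR-/- delta cells, so 1 CFTR-/- fetus carried the difference on the delta side. In alpha cells it was 57.8, 14, 19.2 and 57.7 in WT and 3.71, 9.20 and 5.08 in CFTR-/- fetuses, and outside the gate 986, 1010, 917 and 902 and 158, 388 and 362. The part of acinar RNA was not tested.

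At term the ratio of MMP7, a matrix protease of duct cells, differed by 7.0 between the genotypes (edgeR adjusted p = 0.00827). No gene passed without WT lamb 4 or with DESeq2, and 9 passed without CFTR-/- lamb 2. MMP7 was 51.6, 69.0 and 498 in CFTR-/- and 3.20, 0 and 0 in WT delta cells, 0.699, 5.33 and 50 and 17.0, 2.17 and 56.3 in alpha cells, and 123, 208 and 1545 in CFTR-/- and 89.5, 83.1, 20.1 and 42.1 in WT cells outside the gate. The 12 duct markers there summed to 1124 to 4297 CPM in CFTR-/- and 489 to 967 in WT lambs, and their part was not tested. The delta difference by itself did not pass (log2 6.43, adjusted p = 0.0574).

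In WT the ratio of TXNDC17 rose by 1.55 from 120 days to term (edgeR adjusted p = 0.0327), with delta cells at 220.2 and 207 and then 381, 354 and 508 CPM. No gene passed without WT fetus 1 at 120 days or without WT lamb 3 or 4, with RLE scaling, with at least 20 cells or with SST at 50000 CPM or more. Without marked doublets there were 2 genes, without WT lamb 2 there were 4, and without WT fetus 3 at 120 days 2. Leaving out either fitted fetus left 1 at 120 days, assumed to vary like the other groups.

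Of 32 groups of 4 animals whose levels or shares were examined for an animal far from the rest, 1 stood out, which chance gives in about 1 of 20. CP was 1.5 CPM in CFTR-/- fetus 1 at 120 days, from 1 UMI, and 0 in the other 3.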

How the results depend on the processing

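The alternatives that chose animals, the scaling, the SST threshold or the doublets left most results where they were, and those without the endocrine gate or with both genotypes together were chosen after the data were seen. Of 390 counts and shares recomputed, 281 kept their direction, their side of the threshold and, for counts, a size within 1.5 times. Of 11628 recomputed values of 490 genes, 9 turned direction and 787 lost the threshold. The genotype and age tests rest on 2 to 4 animals per group with at least 10 delta cells. The causes of these changes were not tested.

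In the shares, without the gate WT term against 120 days was -0.10, and the delta share among hormone cells at 80 days was 0.074 with cells thinned to 3000 UMIs, 5.94e-05 without doublets and 0.21 without the gate, and 0.18 at 120 days with cloned CFTR-/- fetuses only. Leaving out an animal gave -0.54 to 0.17 at 80 days (without CFTR-/- fetus 3 and 1), 0.14 to 0.76 at 120 days and 0.05 to 0.78 at term for the share of kept cells, -1.78 to -1.36 and 0.30 to 1.03 for WT with age, and -0.23 to 0.23, -0.36 to 0.16 and -1.05 to 0.18 for the share of hormone cells.

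Without a filter on low counts the genotype counts were 78 at 80 days, 43 at 120 days, 85 at term and 61 over the ages, the WT age counts 74 and 95, the 120 against 80 days count 201, and the ratio counts 66, 29, 58, 33, 20 and 152 (genotype at the 3 ages, WT age steps, term against fetus). Without the gate they were 1, 2 and 1 for genotype, 7 for WT at 120 against 80 days, 65 for both genotypes together, and 1381 against PP cells. DESeq2 gave 2 for genotype at term, 5 over the ages, 9 and 2 for WT age steps, and 0 for the ratio at 80 days and at term. With at least 20 cells the counts were 303 for term against fetus, 12 for 120 against 80 days, 1 for WT at term, 0 over the ages, and 6 and 0 for the ratio at term by genotype and by age. With SST at 50000 or more they were 4 at 80 days, 1 for WT at term, 266 for term against fetus and 0 over the ages, and for the ratio 2 at term, 2 and 0 for age. Without doublets they were 4 at 80 days and 0 over the ages, and 1, 1 and 2 for the ratio at 80 days and the age steps. Without heterozygous fetuses, which left 1 WT fetus at 80 days, they were 1 at 80 days, 6 for 120 against 80 days and 0 over the ages, and 0 and 1 for the ratio at 80 days and for WT at 120 days. With the 2 groups alone they were 12 at 80 days and 1 at term. With naturally bred CFTR-/- lambs only, genotype at term gave 2 genes and the ratio 2. RLE scaling gave 0 for the ratio of WT at term. In the 80-day animals alone 902 genes differed from hormone-low cells.

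The replicate number as a block gave 9 genes at 80 days and 34 at term. No paired analysis beyond this was possible because the numbers pair no animals. The block could not be fitted at 120 days, where the fitted animals share 1 number. The 80-day fit against PP cells and the ratio without the gate were not run.

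Leaving out each animal in turn gave 0 to 3 genes for genotype at 80 days (0 without CFTR-/- fetus 3), 0 at 120 days, 0 to 7 at term (7 without CFTR-/- lamb 2) and 0 to 3 over the ages, 0 and 0 to 2 for the WT age steps, 3034 to 3569 against alpha, 637 to 797 against PP and 1924 to 2143 against hormone-low cells, 294 to 502 for term against fetus (294 without CFTR-/- lamb 1), 0 to 41 for 120 against 80 days (0 without WT fetus 3 at 120 days), and for the ratio 0 to 3, 0 to 1 and 0 to 9 by genotype (9 without CFTR-/- lamb 2) and 0 to 1 and 0 to 4 by age.

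Genes that turned direction were CD74 against alpha cells (0.15 without the gate), DNASE1 (-0.70) and PNLIPRP2 (-0.74) with SST at 50000 or more, KLF9 (1.10), SCG2 (0.063) and TAGLN (-0.10) in the 80-day animals, APOA1 against PP cells (-0.33 without doublets, -0.035 without the gate) and GADD45A against hormone-low cells (0.083 in the 80-day animals).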

Other observations

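GIP, which encodes the incretin hormone of the gut, was found in delta cells of CFTR-/- fetuses. The gene lies outside the rule for named genes and was chosen after its values were seen. Of 196 delta cells of CFTR-/- fetuses at 80 and 120 days, 20 had a GIP UMI and 13 had 5 or more, with 2082 UMIs in all, in 6 of the 7 fetuses with at least 10 delta cells. For a background, 6 of 2113 alpha cells of the same fetuses had a GIP UMI (0.284%) and none had 5 or more, and 81 of 24848 cells outside the gate had one (0.326%), 8 of them with 5 or more. The delta share was 10.2%, and of the hormone-low cells of the same fetuses 82 of 979 had a GIP UMI (8.38%). The median depth was 13367 UMIs in delta, 11332 in alpha cells and 10879 outside the gate. Cells with 1 to 4 UMIs are not read as expressing the gene. At 80 days the cells with a GIP UMI were 4 of 10, 5 of 27 and 5 of 46, and the highest single cells had 669, 7 and 295 UMIs. At 120 days they were 3 of 45, 2 of 22, 1 of 14 and 0 of 31, and the highest cells of the first 3 had 93, 8 and 862 UMIs. The 3 highest cells, each of another fetus, held 1826 of the 2082 UMIs (87.7%).

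No GIP UMI was counted in the 127 delta cells of the WT fetuses, which allows a share of cells with a GIP UMI of up to 2.36%, not of cells expressing the gene. By the same count none of 148 CFTR-/- delta cells at term (up to 2.03% with a UMI) and none of 112 WT delta cells at term (up to 2.68%) had one. These limits pool the cells of several animals and cover counting error only, not the spread between animals. No fold is given against these groups. The edgeR test of genotype for GIP had an adjusted p of 0.481 at 80 days and of 1 at 120 days.

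GIP was not limited to delta cells. Among hormone-low cells, 39 of 979 in CFTR-/- fetuses and 11 of 854 in WT fetuses had 5 or more GIP UMIs. Any GIP UMI was found in 82 (8.38%) and 49 (5.74%) of them. At term 1 of 556 CFTR-/- and 1 of 346 WT cells had 5 or more. Against alpha cells GIP passed the filter on low counts through its delta sums alone, so its direction was fixed and no fold is given. Delta lay above alpha in 6 of 18 animals, with most UMIs in the 3 cells above. From hormone-low cells GIP did not differ past the threshold (log2 0.54, edgeR adjusted p = 0.642).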
